A study of Mus musculus with 6 samples.

Results

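The genes that make and break down inositol pyrophosphates were followed in mouse kidney collecting duct cells after a low-salt or a high-salt diet. The set holds 8 of the 24815 genes to which the counted identifiers could be matched: the phosphohydrolases Nudt11, Nudt10, Nudt3 and Nudt4 and the kinases Ip6k1, Ip6k2, Ppip5k1 and Ppip5k2. Nudt11 leads the set because its counts differed between the diets, so its difference is described here without a test. The other members were chosen by their function around Nudt11, with earlier results of these data known.

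Total RNA from collecting duct cells was sequenced in 3 libraries from male C57BL/6J mice on the Low-NaCl diet (0.01 to 0.02% sodium) and 3 from male C57BL/6J mice on the High-NaCl diet (2.4% sodium), each fed for 5 days. A diet low in NaCl raises plasma aldosterone, and the series title names the aldosterone-induced transcriptome of these cells as its subject. The comparison is between the extremes of salt intake, with no library on a standard diet and none with aldosterone given. The labels give neither the animals' age, nor the number of animals behind a library, nor how the cells were isolated, so a p-value here reflects only how far these libraries scatter, which may be technical. Library 1 of each diet was run on lane 1, the other Low-NaCl libraries on lane 2 and the other High-NaCl libraries on lane 3.

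Inositol pyrophosphates are small signalling molecules in which an inositol ring full of phosphate groups carries a further phosphate bound to one of them, forming an energy-rich pyrophosphate. The Ip6k enzymes and the Ppip5k enzymes add this extra phosphate at different positions of inositol hexakisphosphate. The Nudt3, Nudt4, Nudt10 and Nudt11 enzymes, also called diphosphoinositol polyphosphate phosphohydrolases, take it off again. The molecules bind SPX domains, such as that of the phosphate exporter Xpr1, and are best known for sensing cellular phosphate and energy.

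Nudt11 and Nudt10 are near-identical copies on the X chromosome, and their sequences show how closely the counts of one gene are tied to those of the other. Nudt11 lies at chrX:6047453-6055110 on the plus strand and Nudt10 at chrX:6168696-6173015 on the minus strand (mm10, GENCODE). The coding sequences hold 492 bases each, of which 491 were identical (99.8%). The difference was C396T, with the Nudt11 base first and positions counted from the first base of the start codon. The coding bases 381 to 411 around it are shown with the differing base in capitals.
Nudt11: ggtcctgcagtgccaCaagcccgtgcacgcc
Nudt10: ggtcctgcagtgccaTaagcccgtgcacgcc

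The stretch of 69 coding bases for the Nudix box, the signature of the catalytic site of this enzyme family, sets the X-linked pair beside the relatives on other chromosomes. Capitals mark bases that differ from Nudt11.
Nudt11: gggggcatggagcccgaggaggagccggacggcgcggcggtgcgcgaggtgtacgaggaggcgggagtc
Nudt10: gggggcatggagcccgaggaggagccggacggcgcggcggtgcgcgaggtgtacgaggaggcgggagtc
Nudt3: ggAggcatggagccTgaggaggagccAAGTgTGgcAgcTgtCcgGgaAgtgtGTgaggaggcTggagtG
Nudt4: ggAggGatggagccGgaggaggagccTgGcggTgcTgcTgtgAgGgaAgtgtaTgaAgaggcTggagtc

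Over this box Nudt10 had 0 differences from Nudt11, Nudt3 had 17 and Nudt4 had 14. Over the whole aligned coding sequence Nudt11 shared 76.1% of bases with Nudt3 and 78.7% with Nudt4. Every stretch of 50 bases of Nudt11 was distinct from Nudt3 and Nudt4, with 0 shared, whereas 16.6% of the stretches of 50 bases in the Nudt11 transcript also occurred in Nudt10, and 28.7% of those in Nudt10 occurred in Nudt11. With stretches of 100 bases the shares were 11.6% and 20.3%. Runs of 25 or more identical bases covered 678 bases, which is 22.3% of the Nudt11 transcript and 38.2% of the Nudt10 transcript. They took in almost all of the coding sequence and the bases just before it, while the rest of each transcript was distinct. The transcripts compared hold 3036 bases for Nudt11 and 1775 for Nudt10. The counted identifiers hold 2623 and 1751 exonic bases, so these shares are not those of the counted bases. How reads that fit both genes were mapped is not given in the sources used here, so part of either count can come from the other gene, and the size of that part was not tested.

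The promoters of the pair also share a stretch, shown here because the genes are neighbours and both had their lower values in the Low-NaCl libraries. The RefSeq windows (GRCm38.p6) run from 250 bases before to 50 bases after each annotated start, at chrX:6047257-6047556 on the plus strand for Nudt11 and chrX:6172942-6173241 on the minus strand for Nudt10. Capitals mark the 58 bases that both windows share, which lie at positions -8 to 49 from the Nudt11 start and -250 to -193 from the Nudt10 start. The run reaches the edge of each window, so the shared stretch may be longer. In Nudt11 it lies mostly after the annotated start, and in Nudt10 before it. Any bearing on the levels of the pair was not tested.
Nudt11: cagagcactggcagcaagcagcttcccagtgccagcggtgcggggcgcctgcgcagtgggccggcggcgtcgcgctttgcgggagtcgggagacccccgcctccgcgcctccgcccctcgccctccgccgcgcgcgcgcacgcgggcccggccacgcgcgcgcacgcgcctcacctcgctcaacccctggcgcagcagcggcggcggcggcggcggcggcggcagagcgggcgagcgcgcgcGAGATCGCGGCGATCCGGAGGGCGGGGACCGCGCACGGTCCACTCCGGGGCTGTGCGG
Nudt10: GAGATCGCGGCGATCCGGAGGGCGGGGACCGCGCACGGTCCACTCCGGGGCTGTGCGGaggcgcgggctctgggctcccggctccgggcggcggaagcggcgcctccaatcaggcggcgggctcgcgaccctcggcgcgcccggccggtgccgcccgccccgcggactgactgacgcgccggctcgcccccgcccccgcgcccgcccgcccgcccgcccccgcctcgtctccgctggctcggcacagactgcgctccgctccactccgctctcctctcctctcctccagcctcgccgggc

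Both windows were rich in G and C, at 81% each against a median of 52.7% over the 32851 promoter windows of the table. They held 57 CG pairs in Nudt11 and 51 in Nudt10, against a median of 7. Of 5 motifs searched on both strands, the GC box GGGCGG was found 2 times in Nudt11 and 9 times in Nudt10, and it occurred in 35.7% of all windows. The cAMP response element TGACGTCA (1.79% of all windows), the AP-1 site TGANTCA (7.81%), the palindromic steroid hormone response element (0.00913%) and the E-box CACGTG (7.15%) had 0 matches in either window. Of the other 6 members, Ip6k1 held 1 E-box, and none held any of the other 3 of these motifs. These are matches of letters within the windows only.

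The libraries held 40101899 to 46861531 counts each, and 10516 genes passed the filter on low counts. At an adjusted p under 0.05 (edgeR's quasi-likelihood test), 3.41% of them differed between the diets, 180 being higher and 179 lower on the Low-NaCl diet. Marker genes of principal cells summed to 3121 to 4762 CPM (counts scaled by TMM to a library of common size) in Low-NaCl libraries and 8771 to 10929 CPM in High-NaCl libraries, with Gata3 at 0. Of the 7 tested, 3 were called lower at this threshold, and the log2 fold changes of the 7 ran from -1.80 to -0.86. Intercalated cell markers summed to 2078 to 4582 CPM in Low-NaCl libraries and 1200 to 1418 CPM in High-NaCl libraries. Of the 8 tested, 5 were called higher, and the log2 fold changes of the 8 ran from 0.99 to 1.72. Connecting tubule markers ran from 389 to 496 CPM in Low-NaCl libraries and from 939 to 1225 CPM in High-NaCl libraries, with both tested genes called lower. Immediate early genes, which also respond to tissue handling, ran from 363 to 498 CPM in Low-NaCl libraries and from 1279 to 2102 CPM in High-NaCl libraries, with all 6 tested called lower and Atf3 at 0. Mitochondrial transcripts took 20.5 to 21.8% of counts in Low-NaCl libraries and 21.9 to 29.9% in High-NaCl libraries.

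Nudt11 was low on the Low-NaCl diet. It had 4.45, 4.44 and 3.75 CPM in Low-NaCl libraries 1 to 3, against 13.9, 19.3 and 11.9 CPM in High-NaCl libraries 1 to 3. Every Low-NaCl library lay below every High-NaCl library, and the High-NaCl libraries were the more scattered. These values rest on 179, 195 and 159 reads in Low-NaCl libraries and 507, 1009 and 446 reads in High-NaCl libraries. The means were 4.21 ± 0.401 CPM on the Low-NaCl diet and 15.03 ± 3.84 CPM on the High-NaCl diet (SD, n = 3 each). Its log2 fold change, Low-NaCl minus High-NaCl, was -1.84 ± 0.22 (SE), that is 3.57-fold lower on the Low-NaCl diet; the gene was picked by this same difference, so the value is a description. Of the 10516 genes tested, 62 (0.59%) had a lower log2 fold change. In lane 1 alone, where each diet has 1 library, the difference was -1.65.

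The diet difference of Nudt11 ran alongside those of principal cell, connecting tubule, endothelial and immediate early markers, whose sums were lower in Low-NaCl libraries. It was opposite to those of the intercalated cell and thick ascending limb markers. The part of cell makeup or tissue handling in the Nudt11 difference was not tested. In bulk RNA, fewer cells that express a gene and less of its RNA per cell cannot be told apart. Thick ascending limb markers summed to 82.0 to 88.3 CPM in Low-NaCl libraries and 41.5 to 58.9 CPM in High-NaCl libraries. Of the 2 tested, 1 was called higher, with log2 fold changes of 0.92 for Slc12a1 and 0.33 for Umod. Endothelial markers, with Pecam1 and Emcn at 0, summed to 0.401 to 1.79 CPM in Low-NaCl libraries and 3.16 to 3.38 CPM in High-NaCl libraries. Proximal tubule markers overlapped between the diets, at 4.25 to 33.3 CPM in Low-NaCl libraries and 13.1 to 19.3 CPM in High-NaCl libraries. Podocyte markers overlapped too, at 1.08 to 8.95 CPM in Low-NaCl libraries and 4.99 to 12.7 CPM in High-NaCl libraries. Immune markers summed to at most 0.689 CPM, with Ptprc at 0. Bases shared by several transcript identifiers gave no counts, and the countable share of the markers was not examined. A marker at or near 0, Gata3 and Atf3 included, need therefore not be absent from the cells.

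**Figure D1:**
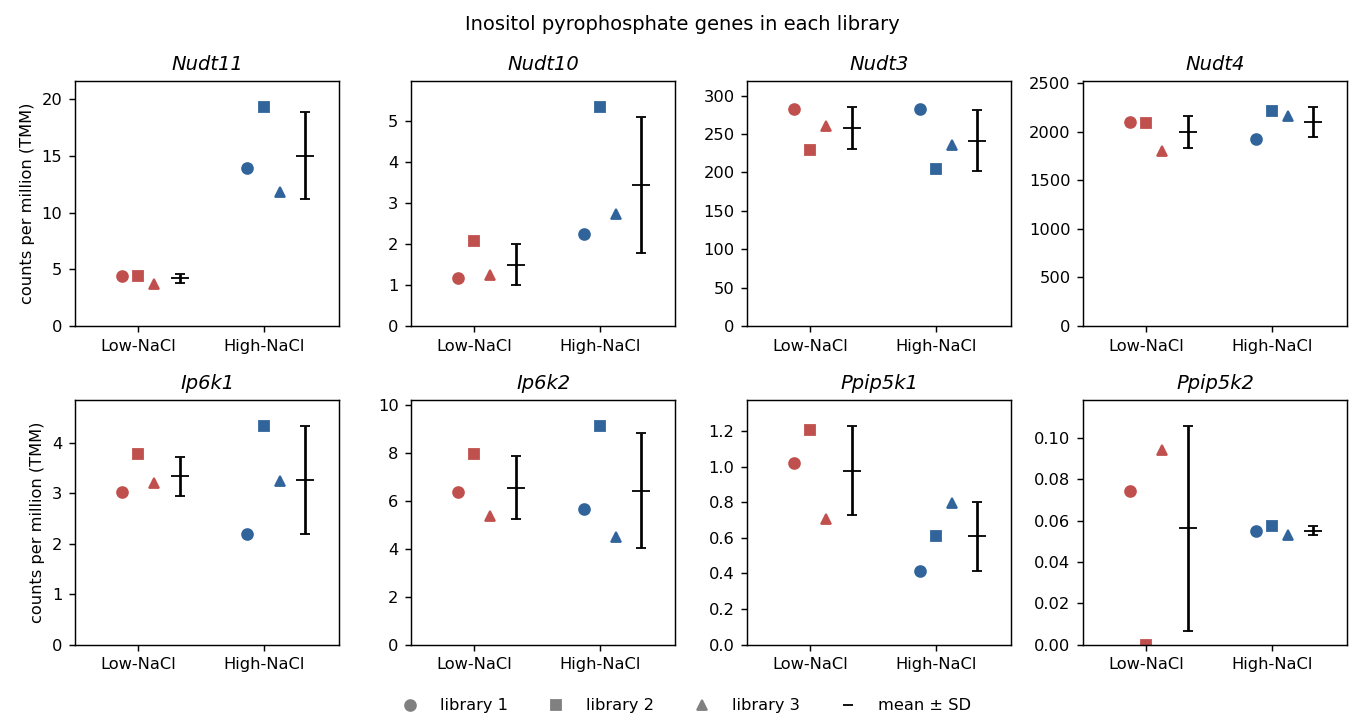
CPM (TMM-scaled) of the 8 genes, with each point a library (red Low-NaCl, blue High-NaCl; circle, square and triangle for libraries 1, 2 and 3) and the bar beside them the mean ± SD (n = 3). Each panel has its own axis from 0; the Low-NaCl points of Nudt11 (3.75 to 4.45 CPM) lie below its High-NaCl points (11.9 to 19.3 CPM), and those of Nudt10 also lie below, while in the other 6 panels the diets overlap.

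Nudt10, whose coding sequence differs from that of Nudt11 only at C396T, a change between codons for histidine, also had its Low-NaCl libraries below its High-NaCl libraries. It had 1.17, 2.07 and 1.25 CPM in Low-NaCl libraries 1 to 3, against 2.25, 5.34 and 2.74 CPM in High-NaCl libraries 1 to 3. The gap between the diets was narrow, between 2.07 CPM in Low-NaCl library 2 and 2.25 CPM in High-NaCl library 1. The counts were small, at 47, 91 and 53 reads in Low-NaCl libraries and 82, 279 and 103 reads in High-NaCl libraries. Mean levels were 1.497 ± 0.5002 CPM on the Low-NaCl diet and 3.44 ± 1.66 CPM on the High-NaCl diet (SD, n = 3 each). The log2 fold change was -1.21 ± 0.37 (SE; 95% interval -2.03 to -0.38), and the difference did not pass the threshold (edgeR, adjusted p = 0.115). DESeq2 called it (adjusted p = 0.0262), and over all the alternatives tried the adjusted p ran from 0.0160 to 0.572. Without High-NaCl library 2, which was the highest, the log2 fold change was -0.74. In lane 1 alone it was -0.95. Of all tested genes, 11.6% had every Low-NaCl library below every High-NaCl library.

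**Figure D2:**
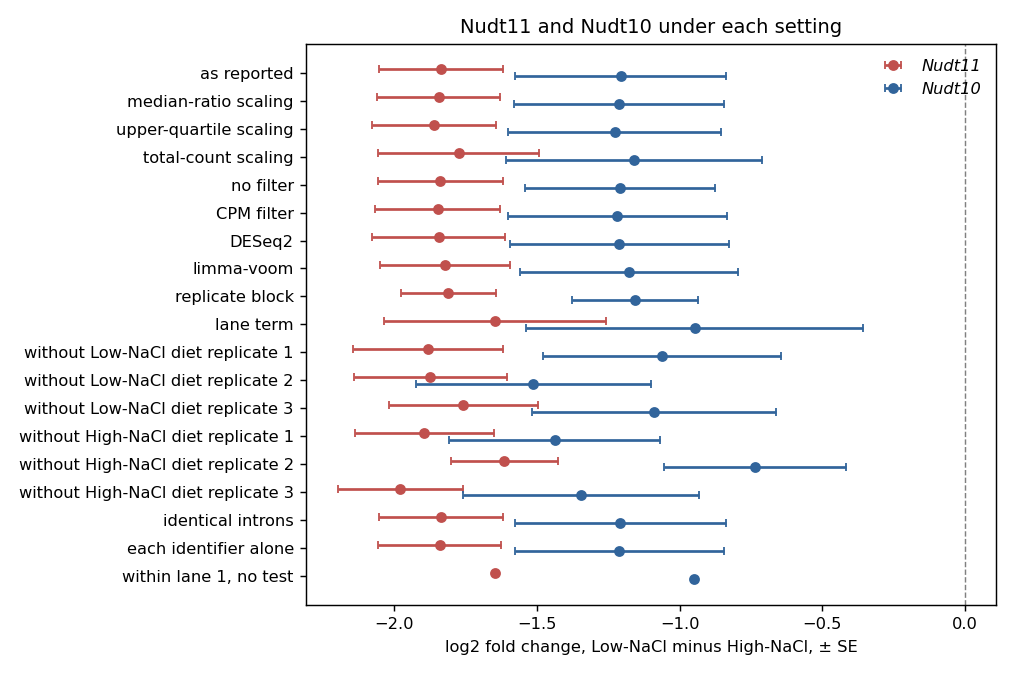
Log2 fold change, Low-NaCl minus High-NaCl, of Nudt11 (red) and Nudt10 (blue) under each way of processing the counts, with bars of ± 1 SE; the lane 1 values have no error. Nudt11 stayed between -1.98 and -1.61 and Nudt10 between -1.51 and -0.74, so that all values of both genes lie left of 0.

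Together the pair had 5.71 ± 0.761 CPM on the Low-NaCl diet and 18.5 ± 5.40 CPM on the High-NaCl diet (SD, n = 3 each). Nudt11 held 79.2% (95% exact interval 73.3 to 84.3), 68.2% (62.4 to 73.5) and 75.0% (68.6 to 80.7) of the pair's reads in Low-NaCl libraries 1 to 3. Its share in High-NaCl libraries 1 to 3 was 86.1% (83.0 to 88.8), 78.3% (76.0 to 80.6) and 81.2% (77.7 to 84.4). The shares of the diets overlapped, Low-NaCl library 1 lying above High-NaCl library 2, and in every library most of the pair's reads were assigned to Nudt11. These intervals cover counting error only.

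The surroundings of Nudt11 held little other signal. Within 200 kb of its start, AU022751 starts 35966 bases away and Nudt10 125562 bases away, and no other protein-coding gene starts there. AU022751 had 1 read in all 6 libraries together.

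Nudt3 and Nudt4, the relatives that are made in most tissues, were far more abundant. Nudt3 also removes the cap of some messenger RNAs in human cells. Nudt3 (chr17:27579382-27623495, minus strand) had 283, 229 and 261 CPM in Low-NaCl libraries 1 to 3, against 283, 204 and 236 CPM in High-NaCl libraries 1 to 3. The diets overlapped, with High-NaCl library 2 the lowest and library 1 of each diet the highest. Its means were 258 ± 27.3 CPM on the Low-NaCl diet and 241 ± 39.7 CPM on the High-NaCl diet (SD, n = 3 each). This gave a log2 fold change of 0.10 ± 0.16 (SE; 95% interval -0.27 to 0.46; edgeR, adjusted p = 0.805).

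Nudt4 (chr10:95547007-95564146, minus strand) had 2098, 2090 and 1806 CPM in Low-NaCl libraries 1 to 3, against 1922, 2210 and 2163 CPM in High-NaCl libraries 1 to 3. The diets overlapped, and the spread within each was small beside the level. Its means were 1998 ± 166 CPM on the Low-NaCl diet and 2098 ± 155 CPM on the High-NaCl diet (SD, n = 3 each), with a log2 fold change of -0.07 ± 0.16 (SE; 95% interval -0.43 to 0.29; edgeR, adjusted p = 0.855). The difference was smaller than its standard error.

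**Figure D3:**
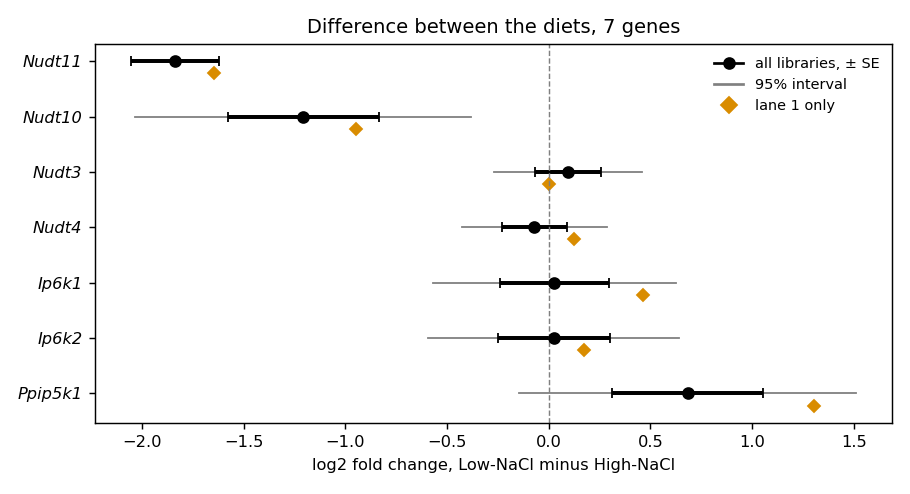
Log2 fold change, Low-NaCl minus High-NaCl, of the 7 genes that passed the filter, with thick bars for ± 1 SE, thin bars for the 95% interval (not drawn for Nudt11, which was chosen for this difference) and diamonds for library 1 of each diet, both run on lane 1. The points of Nudt11 (-1.84) and Nudt10 (-1.21; edgeR, adjusted p = 0.115) lie farthest left, and those of Nudt3, Nudt4, Ip6k1 and Ip6k2 lie between -0.07 and 0.10.

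The kinases Ip6k1 and Ip6k2, which make the pyrophosphate from inositol hexakisphosphate, are both on chromosome 9 and had overlapping diets. Ip6k1 (chr9:108002501-108048782, plus strand) had 3.03, 3.78 and 3.21 CPM in Low-NaCl libraries 1 to 3, against 2.199, 4.34 and 3.24 CPM in High-NaCl libraries 1 to 3. High-NaCl libraries 1 and 2 were the lowest and the highest of all. Its log2 fold change was 0.03 ± 0.27 (SE; 95% interval -0.57 to 0.63; edgeR, adjusted p = 0.966). Ip6k2 (chr9:108783796-108806337, plus strand) had 6.39, 7.95 and 5.35 CPM in Low-NaCl libraries 1 to 3, against 5.66, 9.14 and 4.49 CPM in High-NaCl libraries 1 to 3. Again the lowest and the highest library were both on the High-NaCl diet. Between the diets it differed by a log2 fold change of 0.02 ± 0.28 (SE; 95% interval -0.59 to 0.64; edgeR, adjusted p = 0.972).

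The kinase values rest on a small part of each gene. The authors counted reads per transcript identifier, and bases that belong to more than 1 identifier gave no counts, which left 25.4% of the exonic bases of Ip6k1 and 24.9% of those of Ip6k2 countable. Of the 6 identifiers of Ip6k1, 4 had no count, and 28.0% of its reads came from an identifier with 16 countable bases. Of the 5 identifiers of Ip6k2, 3 had no count, and 79.7% of its reads came from the one with 665 countable bases. Nudt11, Nudt10, Nudt3 and Nudt4 have 1 identifier each and were countable over their whole length. The ratio of Ip6k2 to Ip6k1 reads was between 1.39 and 2.58 in the 6 libraries, with both extremes on the High-NaCl diet. Annotated genes overlap some members, namely Gm20662 with Ip6k1 and RPS10-NUDT3 with Nudt3 on the same strand. Reads counted there could come from either gene.

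The Ppip5k kinases, which add the pyrophosphate at the other position, were close to the lower limit of these libraries. Ppip5k1 (chr2:121310561-121355396, minus strand) had 1.02, 1.21 and 0.708 CPM in Low-NaCl libraries 1 to 3, against 0.412, 0.612 and 0.798 CPM in High-NaCl libraries 1 to 3. The diets overlapped at Low-NaCl library 3 and High-NaCl library 3. Its means were 0.978 ± 0.252 CPM on the Low-NaCl diet and 0.607 ± 0.193 CPM on the High-NaCl diet (SD, n = 3 each), from 15 to 53 reads a library. The diets differed by a log2 fold change of 0.68 ± 0.37 (SE; 95% interval -0.15 to 1.51; edgeR, adjusted p = 0.373), and in lane 1 alone it was 1.31. It was countable over 47.05% of its exonic bases and overlaps Map1a on the opposite strand. Bases in identifiers of both genes gave no counts. Elsewhere in the overlap, reads of these genes cannot be told apart where strand is not used in counting.

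Ppip5k2 (chr1:97706048-97770411, minus strand) had 3, 0 and 4 reads in Low-NaCl libraries 1 to 3, against 2, 3 and 2 reads in High-NaCl libraries 1 to 3. It did not pass the filter and was not tested. With 250 countable bases, 4.30% of its exonic length, the counts say little about its expression, and it overlaps Gin1 on the opposite strand.

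Apart from Nudt11, which was chosen for its difference, 0 of the 6 tested members were called by edgeR in either direction (Nudt10 alone had an unadjusted p under 0.05), 0 by limma-voom and 1, Nudt10, by DESeq2. By edgeR, 1.71% of all tested genes were called higher and 1.7% lower on the Low-NaCl diet, and 1923 of 10516 had an unadjusted p under 0.05. Of the same 10516 genes, DESeq2 called 402 higher and 443 lower, and limma-voom called 147 higher and 159 lower. Of these 6 members, Nudt10 alone had diets that did not overlap, as did 23.8% of all tested genes. The median log2 fold change was 0.02 over the 7 members and -0.0018 over all genes tested. High-NaCl library 2 had the highest value of all 6 libraries for Nudt11, Nudt10, Nudt4, Ip6k1 and Ip6k2, and the lowest for Nudt3.

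Levels between genes were compared as CPM per kilobase of countable exon. Nudt4 came first at 618 ± 51.3 on the Low-NaCl diet and 649 ± 47.9 on the High-NaCl diet, and Nudt3 followed at 119 ± 12.6 on the Low-NaCl diet and 111 ± 18.3 on the High-NaCl diet (SD, n = 3 each). Ip6k2 had 7.52 ± 1.496 on the Low-NaCl diet and 7.37 ± 2.77 on the High-NaCl diet, and Ip6k1 had 2.19 ± 0.256 on the Low-NaCl diet and 2.14 ± 0.702 on the High-NaCl diet. Nudt11 had 1.61 ± 0.153 on the Low-NaCl diet and 5.73 ± 1.46 on the High-NaCl diet, and Nudt10 had 0.855 ± 0.286 on the Low-NaCl diet and 1.97 ± 0.947 on the High-NaCl diet. Ppip5k1 came last at 0.185 ± 0.0478 on the Low-NaCl diet and 0.115 ± 0.0365 on the High-NaCl diet. On this scale all 6 libraries had Nudt4, Nudt3 and Ip6k2 in this order at the top and Ppip5k1 at the bottom.

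The place of Nudt11 in this order changed with the diet. In the Low-NaCl libraries it was below Ip6k1, at 1.43 to 1.70 against 1.99 to 2.48 CPM per countable kilobase. In the High-NaCl libraries it was above Ip6k1, at 4.52 to 7.36 against 1.44 to 2.84, and its range overlapped that of Ip6k2, at 5.15 to 10.47. Nudt10 and Ip6k1 overlapped on the High-NaCl diet only. Divided by all exonic bases instead, Ip6k1 came to 0.556 on the Low-NaCl diet and 0.543 on the High-NaCl diet, and then it lay below Nudt11 on both diets. Ip6k2 came to 1.87 ± 0.372 on the Low-NaCl diet and 1.83 ± 0.689 on the High-NaCl diet per kilobase of all exonic bases (SD, n = 3 each), where its High-NaCl mean was below those of Nudt11 and Nudt10. The order of the kinases against this pair therefore depends on the length used.

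**Figure D4:**
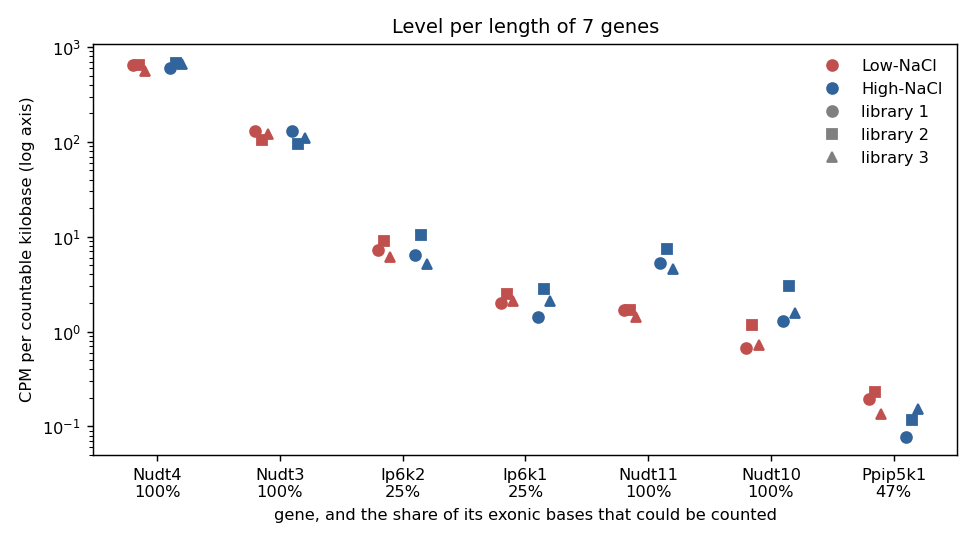
CPM per kilobase of countable exon (log axis) of the 7 tested genes in each library, Low-NaCl (red) left of High-NaCl (blue), with the share of exonic bases that could be counted under each name. Nudt4 (559 to 684) and Nudt3 (94.1 to 130) lie far above the rest, and Nudt11 is the gene whose colours separate most, at 1.43 to 1.70 on the Low-NaCl diet and 4.52 to 7.36 on the High-NaCl diet.

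Among the phosphohydrolases, Nudt4 made up 81.3 to 86.7% of the summed level per kilobase and Nudt3 11.9 to 17.8% in the 6 libraries. Nudt11 made up 0.217 ± 0.00722% on the Low-NaCl diet and 0.745 ± 0.179% on the High-NaCl diet (SD, n = 3 each), and Nudt10 made up 0.116 ± 0.0369% on the Low-NaCl diet and 0.254 ± 0.115% on the High-NaCl diet. In no library did Nudt11 hold more than 0.933% of the family's summed level. Ranked by level among the 4258 tested genes that were countable over their whole length, Nudt4 was at place 121, Nudt3 at 527, Nudt11 at 2682 and Nudt10 at 3194.

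The genes upstream and downstream of the inositol pyrophosphates were examined as 5 lists with 63 genes, of which 41 were tested. None of the 41 was called by edgeR, with 6 at an unadjusted p under 0.05 and the lowest adjusted p at 0.0531, while limma-voom called 0 and DESeq2 called 4, namely Itpka, Itpkb, Plcb1 and Plcg2. Over all 10516 genes tested, 1923 had an unadjusted p under 0.05 by edgeR. Among all these genes DESeq2 called 402 higher and 443 lower on the Low-NaCl diet, and limma-voom called 147 and 159. The diets did not overlap for 9 of the 41 (21.95%), near the 23.8% of all tested genes. The log2 fold change was below 0 for 16 of the 41, and its median over all genes tested was -0.0018.

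Inositol phosphate kinases and phosphatases lead to inositol hexakisphosphate or break it down, and 9 of 13 were tested with a median log2 fold change of 0.03. Itpkb, which phosphorylates inositol trisphosphate, had 63.2, 71.5 and 77.1 CPM in Low-NaCl libraries 1 to 3, against 90.0, 109 and 98.8 CPM in High-NaCl libraries 1 to 3. Its diets did not overlap, and its log2 fold change was -0.49 ± 0.14 (SE; edgeR, adjusted p = 0.0854). Itpka, an enzyme of the same kind, had 0.240 ± 0.157 CPM on the Low-NaCl diet and 0.840 ± 0.307 CPM on the High-NaCl diet (SD, n = 3 each), with a log2 fold change of -1.79 ± 0.57 (SE; edgeR, adjusted p = 0.127). Inpp1, an inositol polyphosphate phosphatase, had a log2 fold change of -0.47 ± 0.23, and Minpp1, which takes phosphates off inositol hexakisphosphate, one of 0.19 ± 0.14. Ippk, which adds the last phosphate of inositol hexakisphosphate, did not pass the filter. Ipmk, the kinase before it, had a log2 fold change of 0.04 ± 0.29 with 14.4% of its exonic bases countable.

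Phospholipase C enzymes release inositol trisphosphate from the membrane and the IP3 receptors answer it with calcium release, and 8 of 15 were tested with a median log2 fold change of 0.31. Plcg2 had 149, 234 and 285 CPM in Low-NaCl libraries 1 to 3, against 131, 111 and 119 CPM in High-NaCl libraries 1 to 3. Every Low-NaCl library lay above every High-NaCl library, and the Low-NaCl libraries were widely spread. Its log2 fold change was 0.89 ± 0.22 (SE; edgeR, adjusted p = 0.0591), and it was called without Low-NaCl library 1 and with no filter on low counts. Plcb1 had 0.401 ± 0.111 CPM on the Low-NaCl diet and 0.0860 ± 0.00850 CPM on the High-NaCl diet (SD, n = 3 each), with a log2 fold change of 2.17 ± 0.51 (SE; edgeR, adjusted p = 0.0531). That gene was near the detection limit, with 31.3% of its exonic bases countable. Plcb3 had a log2 fold change of -0.59 ± 0.36 and Plch1 one of 1.06 ± 0.69. Both were low, with means of at most 1.10 CPM on either diet. Of their exonic bases, 16.6% were countable for Plcb3 and 21.7% for Plch1.

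Transporters of inositol and phosphate, with the inositol oxygenase Miox, had 6 of 7 genes tested and a median log2 fold change of 0.06. Slc5a3, the sodium-coupled carrier that brings myo-inositol into kidney cells, had 619, 876 and 643 CPM in Low-NaCl libraries 1 to 3, against 361, 443 and 601 CPM in High-NaCl libraries 1 to 3. The diets did not overlap, with Low-NaCl library 1 just above High-NaCl library 3. Its log2 fold change was 0.61 ± 0.22 (SE; edgeR, adjusted p = 0.177). The log2 fold change was 1.23 ± 0.56 for the phosphate importer Slc20a1, -0.31 ± 0.20 for the proton-coupled inositol carrier Slc2a13 and 0.17 ± 0.18 for Xpr1, the exporter whose SPX domain binds inositol pyrophosphates. Slc20a1 was near the detection limit, with 24.9% of its exonic bases countable. It had 0.539 ± 0.256 CPM on the Low-NaCl diet and 0.222 ± 0.118 CPM on the High-NaCl diet (SD, n = 3 each).

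Other genes of the Nudix family, most of them hydrolases of compounds built on a nucleoside diphosphate, had 12 of 18 tested and a median log2 fold change of -0.07. Their log2 fold changes ran from -0.47 for Nudt22, a UDP-glucose hydrolase in human cells, to 0.28 for Nudt5, an ADP-sugar hydrolase. Nudt19 had 0.27 ± 0.13 and Nudt14 -0.32 ± 0.23. Proteins of mRNA decapping and polyphosphate breakdown had 6 of 10 tested and a median of 0.05. The log2 fold change was -0.14 ± 0.22 for Dcp1a and -0.16 ± 0.30 for Dcp1b, both partners of the decapping enzyme, 0.08 ± 0.14 for Prune1 and 0.11 ± 0.25 for the decapping enhancer Edc3. The values of Dcp1b and Edc3 rest on 2.99% and 9.58% of their exonic bases. For each of these 6 decapping and polyphosphate genes the diets overlapped.

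**Figure D5:**
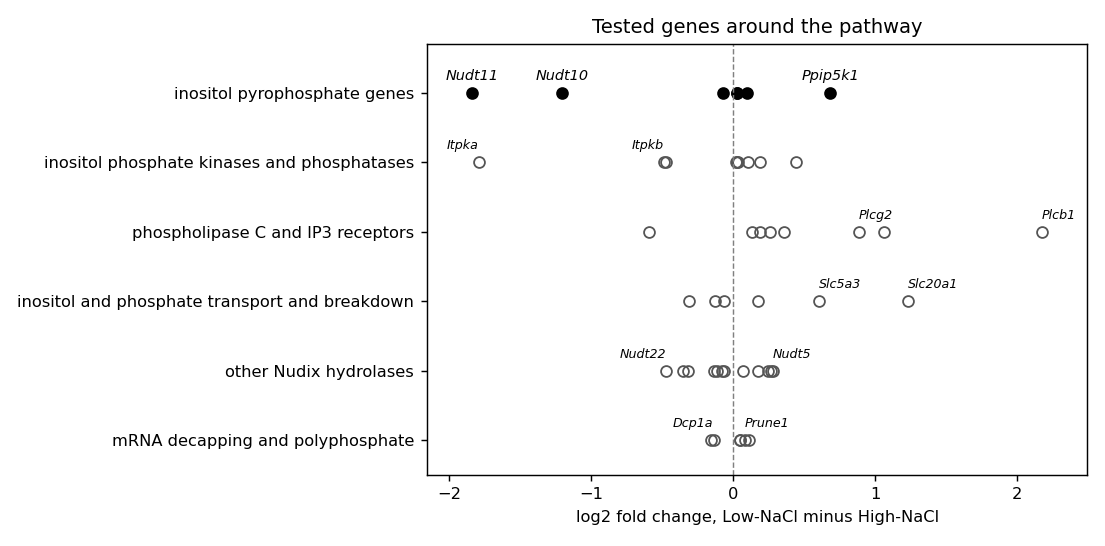
Log2 fold change, Low-NaCl minus High-NaCl, of each tested gene, with the inositol pyrophosphate genes as filled points in the top row and the 5 surrounding lists as open points below it; the pair of smallest p in each list is named. Values spread widely for phospholipase C and IP3 receptors (-0.59 to 2.17) and little for decapping and polyphosphate genes (-0.16 to 0.11).

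Similarity of pattern to Nudt11 over the 6 libraries was ranked by Pearson's r of log2(CPM + 0.5) among tested protein-coding genes. Placeholder symbols were left out. The 5 genes highest in this ranking were Ppil6 (r = 0.997), Rasgrp2 (0.997), Grk4 (0.992), Cep135 (0.992) and Cbx6 (0.991). The points share library and depth, and each of the 5 genes had its lower mean on the Low-NaCl diet, as Nudt11 did. Ppil6, a member of the cyclophilin-like family, had 15.9 ± 0.592 CPM on the Low-NaCl diet and 26.9 ± 2.51 CPM on the High-NaCl diet (SD, n = 3 each), a log2 fold change of -0.76 ± 0.14. Rasgrp2, an activator of the small GTPase Rap, had 0.0864 ± 0.0239 CPM on the Low-NaCl diet and 0.880 ± 0.292 CPM on the High-NaCl diet, a log2 fold change of -3.31 ± 0.48. Grk4, a kinase of G protein-coupled receptors, Cep135, a centrosome protein, and Cbx6, a Polycomb protein, had log2 fold changes of -0.63 ± 0.21, -0.47 ± 0.18 and -0.48 ± 0.13. All of them differed less between the diets than Nudt11 except Rasgrp2. That gene was near the detection limit on the Low-NaCl diet, with 42.9% of its exonic bases countable.

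The other members followed Nudt11 less closely over the libraries. Nudt10 had an r of 0.87, with 485 other genes higher, Nudt4 of 0.45, Ip6k2 of 0.13 and Ip6k1 of 0.02. Nudt3 had an r of -0.41 and Ppip5k1 of -0.68. The 6 points fall into 3 libraries of each diet, so these values carry the diet difference and are given as a description.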

How the data were processed

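RNA was extracted with Qiazol and a column kit with removal of genomic DNA, per the labels' protocols. The deposited values are raw counts per UCSC transcript identifier, made by the authors with featureCounts 1.5.0-p3 on mm10, per the file headers; no option for strand or for reads over several identifiers is in the recorded command. Subread, FastQC and edgeR are named in the submitters' processing notes. The lane comes from the sequencing file names in those headers. Of 59121 identifiers, 52383 were matched to GENCODE M21 genes on the same strand by 50% or more of their exonic bases and summed per gene; the others held 5.65% of counts and stayed in the library size. Genes were filtered with filterByExpr, scaled by TMM and tested with edgeR 4.0.16 (quasi-likelihood, robust, R 4.3.3) with Benjamini-Hochberg adjustment over 10516 genes; the biological coefficient of variation was 21.6%. Standard errors were taken from the fold change and its F statistic, as |log2FC|/√F. DESeq2 1.42.0 and limma 3.58.1 were alternatives. Depth was 40101899 to 46861531 counts a library, and no replicates agreed within sampling noise. Members and lists were chosen with earlier results of these data known. Named were all members, up to 4 genes of each list by smallest p and neighbours within 200 kb. The 5 most similar protein-coding genes without placeholder symbols were also named. Ipmk, Ippk and Xpr1 beside them were named for their role, and Atf3, Gata3 and the other markers at 0 because they define a list.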

Additional observations from a re-analysis of the deposited data

How the results depend on the processing

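Nudt11 kept its sign under all 17 alternatives (-1.98 to -1.61), and Nudt10 did too (-1.51 to -0.74). Called genes, 180 higher and 179 lower on the Low-NaCl diet, numbered 80 and 55 once scaled by total counts, 402 and 443 in DESeq2, and 1 and 2 with lane as a term; 274 were lower with no filter. Leaving out 1 library gave 32 to 290 higher and 36 to 252 lower, the fewest higher without High-NaCl library 3 and the fewest lower without Low-NaCl library 2. The cause was not tested. With lane as a term Nudt11 had -1.65 ± 0.39. Lane 2 held only Low-NaCl and lane 3 only High-NaCl libraries, so the diet difference in this fit rests on library 1 of each diet. Deviations from the diet means had correlations of 0.19, 0.27 and -0.07 in same-numbered libraries and of -0.28 to 0.10 in the others. The labels do not say whether the numbers pair the libraries, and these values do not settle it. A replicate block gave 457 higher and 437 lower, with Nudt10 at -1.16 (edgeR, adjusted p = 0.0160) and Itpka, Itpkb and Nudt22 called. Small differences turned sign: Nudt3 to -0.0010 with the lane term or within lane 1 and -0.012 without High-NaCl library 2 (leave-one-out range to 0.22); Nudt4 to 0.0095 with total-count scaling and 0.13 with the lane term or within lane 1; Ip6k1 to -0.07 without Low-NaCl library 2, -0.19 without High-NaCl library 1 (range to 0.29) and -0.12 with each identifier alone; Ip6k2 to -0.13, -0.07 and -0.18 on leaving out Low-NaCl library 2, High-NaCl library 1 or High-NaCl library 3 (range to 0.37). The values within lane 1 were added after the data were seen.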
